A study of Mus musculus with 9 samples.

Results

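The 40 chromatin regulators described here are genes whose products write, read or erase marks on histones and DNA, or move nucleosomes: the MLL histone methyltransferase with its complex and fusion partners, the Polycomb repressive complexes, the DNA methylation machinery, histone demethylases, the acetylation enzymes and readers, and SWI/SNF. They are set by a list of gene symbols with no threshold on signal, drawn up with earlier results of these arrays known. Probe sets of the array were matched to them by the platform's gene symbols, which gave 71 probe sets for 35 of the 40, out of 12394 genes with a named probe set. None was listed for Rbbp5, Dot1l, Tet2, Kdm6b and Ep300, which were not analysed here. Mllt3 and Cbx2 were too dim to be tested, so 58 probe sets and 33 genes entered the tests.

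RNA of sorted mouse blood-forming cells was hybridised to 9 Affymetrix arrays, 3 for each of 3 kinds of cell. GMP are normal granulocyte-macrophage progenitors of bone marrow, the committed precursors of neutrophils and monocytes. L-GMP are GMP-like cells taken from the bone marrow of mice with MLL-AF9 leukaemia, and L-GMP-derived cells were grown from L-GMP in culture. L-GMP and their cultured descendants thus share the leukaemia, and the normal GMP do not; L-GMP-derived cells differ from both in having been cultured. Strain, age, sex, the way the fusion was introduced and the number of animals are not given in the labels. The titles of the cultured arrays are codes and their source reads L-GMP, so that their group was inferred as the one left over in the series' design. Whether arrays of a group hold RNA of different animals or cultures is not stated; the p-values then reflect only the spread between arrays, which may be technical.

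MLL, encoded by Kmt2a, methylates lysine 4 of histone H3 within a complex that contains Wdr5, Ash2l and Rbbp5, and menin (Men1) and LEDGF (Psip1) tether it to chromatin. In MLL-AF9 the start of MLL is joined to the end of AF9, the product of Mllt3, which belongs to the elongation machinery that also brings the H3 lysine 79 methyltransferase Dot1l. Polycomb complexes act in the opposite sense at many of the same genes: PRC2 (Ezh1 or Ezh2 with Eed and Suz12) methylates lysine 27 of histone H3, and PRC1 (Ring1 or Rnf2 with Bmi1, Cbx and Phc proteins) ubiquitinates histone H2A. In DNA, Dnmt3a and Dnmt3b place new methyl groups on cytosines of CG dinucleotides, Dnmt1 with Uhrf1 copies them at replication, and Tet2 oxidises them. The fusion transcript itself cannot be checked on these arrays, whose probe sets are assigned to the normal genes.

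The 3 members that differed most between groups were Dnmt3b, Dnmt3a and Phc1, and their promoters are shown because the products of the first pair methylate the dinucleotide CG. Each sequence is the 200 bases before a RefSeq transcription start in build GRCm38.p6, written 5′ to 3′ on the gene's strand, with every CG in capitals. Dnmt3b starts on chromosome 2, plus strand, and its window is chr2:153649249-153649448. Dnmt3a has an upstream start with the window chr12:3806780-3806979 and a downstream start with the window chr12:3891544-3891743, both on the plus strand. The window of Phc1 is chr6:122340228-122340427 on the minus strand.
Dnmt3b: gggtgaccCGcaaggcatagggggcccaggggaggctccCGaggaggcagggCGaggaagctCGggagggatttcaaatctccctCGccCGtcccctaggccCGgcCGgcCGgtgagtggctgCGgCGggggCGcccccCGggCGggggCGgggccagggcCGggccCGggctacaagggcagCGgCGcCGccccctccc
Dnmt3a, upstream start: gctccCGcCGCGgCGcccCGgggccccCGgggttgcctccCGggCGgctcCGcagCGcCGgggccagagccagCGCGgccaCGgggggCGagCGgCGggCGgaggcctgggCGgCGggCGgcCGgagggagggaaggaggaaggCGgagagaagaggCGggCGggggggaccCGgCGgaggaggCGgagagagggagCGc
Dnmt3a, downstream start: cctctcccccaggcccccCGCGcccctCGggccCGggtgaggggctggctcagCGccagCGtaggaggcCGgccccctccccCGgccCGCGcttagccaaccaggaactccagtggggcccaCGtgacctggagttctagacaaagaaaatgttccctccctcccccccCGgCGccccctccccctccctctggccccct
Phc1: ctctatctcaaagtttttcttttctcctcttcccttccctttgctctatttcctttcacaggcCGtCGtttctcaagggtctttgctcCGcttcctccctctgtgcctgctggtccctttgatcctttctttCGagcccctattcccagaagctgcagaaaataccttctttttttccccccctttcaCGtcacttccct
The Dnmt3b window holds 20 CG, and 12.7% of all 32851 promoter windows in the table hold at least as many. The upstream Dnmt3a window holds 29 (3.20% of all windows hold at least as many), the downstream one 13 (27.1%) and the Phc1 window 5 (50.8%). The motif searched was CG, which reads the same on both strands. Of the 40 members 34 had a window, 51 windows in all, with a median of 18 CG against 5 over all windows. At least 10 CG stood in 72.5% of the member windows and in 34.2% of all windows, and at least 1 in 98.0% and 89.4%. These counts describe the sequence, since methylation was not measured.

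Signals are the authors' linear intensities per probe set, and trimmed means of the arrays lay between 451 and 483. Over the 14578 tested probe sets, log2 signals correlated at 0.958 to 0.991 between arrays of a group and at 0.898 to 0.928 between groups, with the lowest values within a group for L-GMP-derived replicate 1. Of the GMP markers, Elane had means of 6419 ± 350.1 in GMP, 6734 ± 1204 in L-GMP and 6162 ± 467 in L-GMP-derived cells, while Kit had 816 ± 41.7, 657 ± 99.4 and 93.9 ± 23.5 (SD, n = 3). The summed signal of 11 GMP markers ran from 42155 to 43689 in GMP, 32620 to 38999 in L-GMP and 26176 to 31160 in L-GMP-derived cells, where Cd34 lay below the floor of 62.4 on all 3 arrays. Single markers went both ways by limma at an adjusted p under 0.05. Against GMP 2 were higher and 3 lower in L-GMP, and 0 higher and 4 lower in L-GMP-derived cells. Between L-GMP-derived cells and L-GMP 2 were higher and 6 lower. The shares over all genes are given with the members' counts below. Some marker lists of other cell types differed in the cultured group and others overlapped between groups. The sum over 10 monocyte and macrophage markers was 16319 to 17716 in GMP, 14949 to 17020 in L-GMP and 4423 to 6479 in L-GMP-derived cells. The sum over 8 mature granulocyte markers was 8983 to 22602, 17928 to 36711 and 962 to 8499, and the sum over 8 mast cell, eosinophil and basophil markers 3955 to 4261, 4752 to 7429 and 339 to 504, with Cpa3, Prg2, Epx and Fcer1a below the floor on every array of the cultured cells. The sum over 8 T and NK cell markers was higher there, at 1445 to 1651, 1521 to 1678 and 1804 to 2003. By limma at an adjusted p under 0.05, 1 of the 6 tested was higher and 0 lower than in GMP. Against L-GMP 1 was higher and 1 lower, so the sum does not describe the list as a whole. The sum over 7 B cell markers overlapped between the groups, at 2921 to 3121, 2995 to 3140 and 2641 to 3247. The sum over 7 erythroid and megakaryocyte markers was 1501 to 1762, 1482 to 1766 and 1198 to 1393, and that over 6 class II and dendritic cell markers 1341 to 1404, 807 to 1012 and 965 to 1238. The 3' to middle signal ratio of the beta-actin control was 4.23 ± 0.54 in GMP, 2.26 ± 0.29 in L-GMP and 3.01 ± 0.17 in L-GMP-derived cells (SD, n = 3; exact two-sided permutation p = 0.1 for each pair, the smallest that 3 against 3 arrays allow). The beta-actin 3' to 5' ratio was 7.37 ± 0.65, 5.17 ± 0.36 and 7.10 ± 0.14 in the same order. For the Gapdh control the 3' to 5' ratio was 7.86 ± 0.85, 8.09 ± 3.05 and 7.21 ± 1.78, with overlapping groups. The Gapdh 3' to middle ratio was 2.13 ± 0.10, 1.85 ± 0.05 and 1.86 ± 0.13. The part of these markers and ratios in the differences that follow was not tested.

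Of the 33 tested members, 16 differed between at least one pair of groups at a limma adjusted p under 0.05, and 17 in none, each gene being represented by its probe set of highest mean signal. No member passed in all 3 comparisons. In L-GMP against GMP 9 members passed, 2 higher and 7 lower, which is 27.3% beside 25.9% of all 8965 tested genes. In L-GMP-derived cells against GMP 9 passed, 1 higher and 8 lower, which is again 27.3% beside 24.1%. In L-GMP-derived cells against L-GMP 7 passed, 3 higher and 4 lower, 21.2% beside 30.7%; with quantile normalisation the split was 2 higher and 5 lower. These splits count Ezh1 and Smarcb1 by the probe set of highest mean signal, although their probe sets went opposite ways. Without both genes, chosen after their values were seen, 31 members were left. The splits were then 2 higher and 5 lower, 1 higher and 8 lower, and 2 higher and 4 lower. Rnf2 still counts as lower in the last pair of splits. Its dim probe set 1448041_at, which did not pass, read 152 to 176 in L-GMP-derived cells and 133 to 149 in GMP. The share of members that passed lay near or below that of all genes in each comparison. The counts by role given below concern 2 to 9 tested genes each and are to be set beside the same shares of all genes. The comparisons with GMP share their GMP arrays. Over all genes 13.1% were higher and 12.8% lower in L-GMP and 13.4% higher and 10.7% lower in L-GMP-derived cells. For cultured cells against L-GMP, 16.6% of all genes were higher and 14.1% lower. The median log2 difference of the members was -0.07, -0.17 and -0.03 in the 3 comparisons, beside -0.01, 0.00 and -0.00 over all tested genes. Median absolute log2 differences were 0.20, 0.22 and 0.19 for the members and 0.23, 0.22 and 0.25 for all tested genes. The 3 arrays of one group lay wholly apart from those of the other for 16, 20 and 16 of the 33 members, beside 46.9%, 41% and 41.2% of all tested genes. Without L-GMP-derived replicate 1, 12, 10 and 9 members passed. In sorted bulk samples, fewer cells that express a gene and less of its RNA per cell cannot be told apart.

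**Figure D1:**
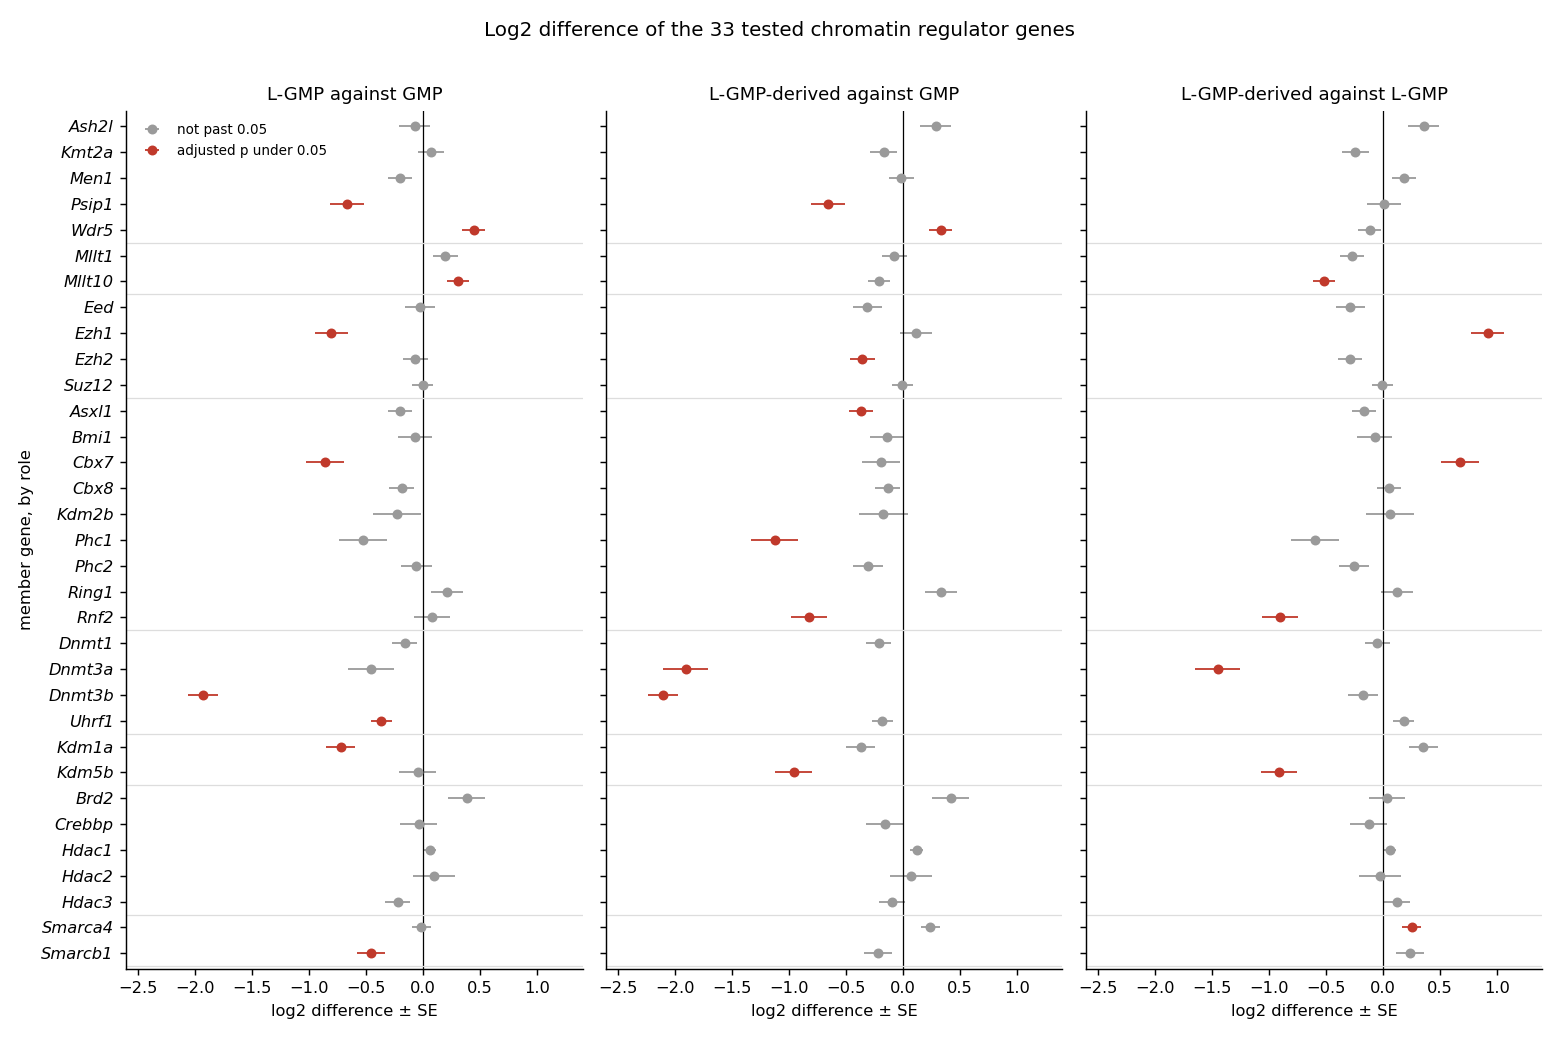
Log2 difference (points) with its standard error (bars) for each of the 33 tested chromatin regulator genes, ordered by role on the vertical axis, in the 3 comparisons; red points have a limma adjusted p under 0.05. Dnmt3b lies farthest to the left in both comparisons with GMP (-1.93 and -2.10), Dnmt3a is far to the left wherever the cultured cells are compared (-1.90 and -1.45), and the acetylation genes show no red point.

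The largest differences among the members were in the de novo DNA methyltransferases, at different steps. Dnmt3b was lower than in GMP in both L-GMP and the cultured cells, while Dnmt3a was lower in the cultured cells than in either of the other groups. Dnmt3b (probe set 1449052_a_at) gave signals of 1524, 1849.7 and 1937 on the GMP arrays, 494, 438 and 461 on the L-GMP arrays and 384, 459.9 and 391 on the L-GMP-derived arrays. The lowest GMP array thus lay far above all 6 leukaemic arrays, and the leukaemic groups overlapped each other. The level was 3.80-fold lower in L-GMP than in GMP (log2 difference -1.93, SE 0.13, limma adjusted p = 4.22e-06) and 4.29-fold lower in L-GMP-derived cells (-2.10, SE 0.13, adjusted p = 2.16e-06). Between L-GMP-derived cells and L-GMP the difference was -0.18 (SE 0.13, adjusted p = 0.352). Its second probe set, 1418351_a_at, fell by 1.60 and 1.73 on the log2 scale against GMP (adjusted p = 4.55e-06 and 2.58e-06). All folds are taken between mean log2 signals, after values below 62.4 had been raised to that floor.

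Dnmt3a (1460324_at) gave 749, 851 and 816 in GMP, 571, 638 and 554 in L-GMP and 307, 195 and 166 in L-GMP-derived cells. At this probe set the 3 groups did not overlap, and the cultured arrays stood lowest, with replicate 1 the highest of them. The level was 3.74-fold lower in L-GMP-derived cells than in GMP (log2 -1.90, SE 0.20, adjusted p = 7.94e-05) and 2.73-fold lower than in L-GMP (-1.45, SE 0.20, adjusted p = 4.03e-04). In L-GMP against GMP the log2 difference was -0.45 (SE 0.20), which did not pass (adjusted p = 0.122). The other probe sets went both ways between these groups. L-GMP arrays lay below the GMP arrays at 1423063_at and 1423064_at. They lay above them at 1423065_at (237 to 296 against 203 to 225) and 1423066_at (235 to 282 against 205 to 224). All 5 Dnmt3a probe sets passed in both comparisons of the cultured cells, with log2 differences from -0.79 to -1.90 against GMP and from -1.10 to -1.63 against L-GMP. At 1423066_at the cultured arrays read 139, 58.2 and 53.9, so 2 of the 3 lay below the floor and entered the test at 62.4.

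Of the maintenance machinery, Uhrf1 passed in 1 comparison and Dnmt1 in none. Dnmt1 (1435122_x_at), the methyltransferase that copies existing methylation, gave 2933, 2701 and 2897 in GMP, 2785, 2547 and 2318 in L-GMP and 2075, 2581 and 2771 in L-GMP-derived cells, with overlapping groups and adjusted p-values of 0.327, 0.199 and 0.781. Uhrf1 (1415810_at), which brings Dnmt1 to hemimethylated CG sites, gave 1959, 1904 and 1971 in GMP, 1664, 1514 and 1366 in L-GMP and 1683, 1810.5 and 1656 in L-GMP-derived cells. Every leukaemic array lay below every GMP array. The 1.29-fold lower level in L-GMP passed (log2 -0.37, SE 0.09, adjusted p = 0.0142) and the log2 difference of -0.18 in L-GMP-derived cells did not (adjusted p = 0.182). The L-GMP call for Uhrf1 was lost when its 2 probe sets were averaged (adjusted p = 0.455) or GMP replicate 3 was left out (0.0586).

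**Figure D2:**
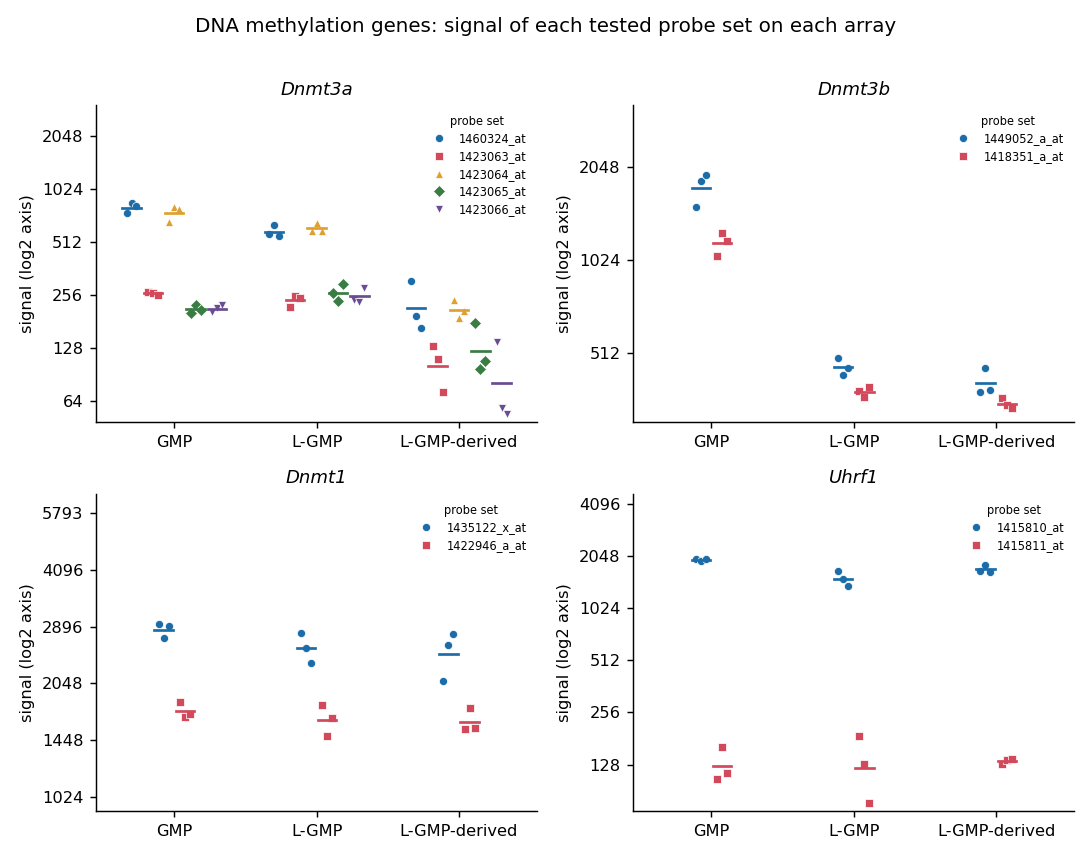
Signal (log2 axis) of each tested probe set of Dnmt3a, Dnmt3b, Dnmt1 and Uhrf1 on each of the 9 arrays, in GMP, L-GMP and L-GMP-derived cells; points are arrays, colours and shapes are probe sets, and short lines are the means of the log2 signals of a group. Both Dnmt3b probe sets drop between GMP and L-GMP, while all 5 Dnmt3a probe sets are lowest in L-GMP-derived cells.

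Among the PRC1 genes and Asxl1, counted together, 1 of the 9 tested members was lower in L-GMP than in GMP. In L-GMP-derived cells 3 were lower than in GMP, Asxl1 among them, and 1 was higher and 1 lower than in L-GMP. The genes that passed were Phc1, Rnf2, Cbx7 and Asxl1. Phc1, a Polyhomeotic subunit through which PRC1 complexes oligomerise, gave 312, 459 and 460.0 in GMP, 288, 261 and 292 in L-GMP and 253, 167 and 149.9 in L-GMP-derived cells. Each group lay below the one before it without overlap, though GMP replicate 1 came close to the L-GMP arrays and L-GMP-derived replicate 1 to them from the other side. The level in L-GMP-derived cells was 2.18-fold lower than in GMP (log2 -1.12, SE 0.21, adjusted p = 0.00318). The steps from GMP to L-GMP (-0.53, adjusted p = 0.0908) and from L-GMP to L-GMP-derived cells (-0.60, adjusted p = 0.0544) did not pass.

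Rnf2 (1424873_at), which encodes RING1B, the catalytic ubiquitin ligase subunit, gave 1677, 1565 and 1635 in GMP, 1489.8, 1715 and 1976 in L-GMP and 723, 1130.0 and 949 in L-GMP-derived cells. The GMP and L-GMP arrays overlapped, and all 3 cultured arrays lay below both. The level in the cultured cells was 1.77-fold lower than in GMP (log2 -0.82, SE 0.16, adjusted p = 0.00405) and 1.87-fold lower than in L-GMP (-0.90, SE 0.16, adjusted p = 0.00183). A second probe set, 1451519_at, passed in the same direction in both comparisons (-0.73 and -0.72). The dim probe sets 1448041_at and 1448043_x_at, with group means of 142 to 166, did not pass. At 1448041_at the cultured arrays, at 152 to 176, lay above the GMP arrays, at 133 to 149. Averaged over its 4 tested probe sets, Rnf2 missed the threshold against GMP (log2 -0.33, adjusted p = 0.0541) and kept it against L-GMP (-0.38). Ring1, the paralogous ligase, gave 209.7, 174 and 186 in GMP, 237, 188 and 238 in L-GMP and 211, 260.3 and 249 in L-GMP-derived cells, and passed in no comparison (adjusted p = 0.311, 0.111 and 0.560).

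Cbx7, a chromodomain protein that binds trimethylated lysine 27 of histone H3, was low in L-GMP and not in either of the other groups. Probe set 1420039_s_at gave 370.2, 378 and 409 in GMP, 213, 199 and 224 in L-GMP and 259, 427 and 349.9 in L-GMP-derived cells. The L-GMP arrays lay below all others, with L-GMP-derived replicate 1 the nearest. The level was 1.82-fold lower in L-GMP than in GMP (log2 -0.86, SE 0.17, adjusted p = 0.00354) and 1.60-fold higher in L-GMP-derived cells than in L-GMP (0.67, SE 0.17, adjusted p = 0.0114), while L-GMP-derived cells against GMP gave -0.19 (adjusted p = 0.450). Probe sets with this ending can also bind related transcripts, and the other Cbx7 probe set was below the filter. Cbx2, a paralogue, was dim throughout, at 92.9 to 126 in GMP, 71.2 to 80.4 in L-GMP and 80.2 to 90.9 in L-GMP-derived cells for its brighter probe set. Cbx8, another paralogue, had group means of 235 ± 5.15, 207 ± 10.3 and 215 ± 16.6 (SD, n = 3) and passed in no comparison. Its other probe set, 1419198_at, was below the filter and read higher on each L-GMP array than on any other, at 63.5 to 81.5 in GMP, 107 to 133 in L-GMP and 63.5 to 94.7 in L-GMP-derived cells.

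Asxl1, whose product works with the deubiquitinase Bap1 to remove the PRC1 mark, gave 1188, 1158 and 1246 in GMP, 1176, 957 and 999 in L-GMP and 951, 916 and 914 in L-GMP-derived cells. The cultured arrays lay below all others. The level was 1.29-fold lower than in GMP (log2 -0.37, adjusted p = 0.0278). That call was lost when any 1 GMP array or L-GMP-derived replicate 2 or 3 was left out, or when the probe sets were averaged (up to adjusted p = 0.25 over all alternatives). The second Asxl1 probe set, at 629 to 689 in GMP and 566 to 779 in L-GMP-derived cells, did not pass. Its L-GMP arrays, at 717 to 949, lay above the GMP arrays (log2 0.27, limma adjusted p = 0.218), opposite to the first probe set. The remaining tested genes of the group of PRC1 and Asxl1 passed in no comparison. Bmi1, the PCGF subunit best known for stem cell self-renewal, had means of 827 ± 39.6, 791 ± 61.3 and 762 ± 169.9. Phc2 had means of 1072 ± 146, 1029 ± 116 and 861 ± 39.4 at 1437239_x_at. At its other probe set, 1416048_at, the cultured arrays lay above the GMP arrays, at 519 to 550 against 458 to 494. Kdm2b, whose CXXC domain brings PRC1 to unmethylated CG, had 773 ± 111, 665 ± 150.1 and 697 ± 168.

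Of the 4 PRC2 genes, Ezh2 was lower in the cultured cells than in GMP, Eed and Suz12 passed in no comparison, and the probe sets of Ezh1 went opposite ways. Ezh2, the methyltransferase of dividing cells, gave 1325, 1119.7 and 1211 in GMP, 1223, 1073 and 1191 in L-GMP and 1013, 953 and 891 in L-GMP-derived cells. The first pair of groups overlapped and the cultured arrays lay below both. Its 1.28-fold lower level in L-GMP-derived cells than in GMP passed (log2 -0.35, SE 0.11, adjusted p = 0.0357), but not when GMP replicate 1 or 3 or L-GMP-derived replicate 2 or 3 was left out, or with only the 6 arrays compared (up to adjusted p = 0.181 over all alternatives). The difference from L-GMP was -0.29 (adjusted p = 0.0685). Eed, the subunit that reads the mark, had means of 1140.0 ± 58.3, 1123 ± 108 and 925 ± 139 and passed in no comparison. Suz12, a scaffold subunit, had nearly equal means of 2231 ± 92.9, 2230.2 ± 51.9 and 2234 ± 275. Of its 6 tested probe sets 1, 1420022_s_at, passed in L-GMP-derived cells against L-GMP (log2 0.45, adjusted p = 0.0231).

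Ezh1, the methyltransferase of PRC2 in non-dividing cells, was read by 2 tested probe sets. At 1418290_a_at the signals were 305, 273 and 328 in GMP, 172, 169.7 and 176 in L-GMP and 265, 383 and 341 in L-GMP-derived cells. At 1449023_a_at they were 169, 200.3 and 170.1 in GMP, 265, 296 and 280.2 in L-GMP and 220.2, 159 and 186 in L-GMP-derived cells. L-GMP arrays were thus the lowest at the first probe set and the highest at the second, with no overlap with the other groups at either. In L-GMP against GMP the first gave a log2 difference of -0.80 (SE 0.14, adjusted p = 0.00231) and the second 0.64 (SE 0.14, adjusted p = 0.00718). In L-GMP-derived cells against L-GMP they gave 0.92 (adjusted p = 9.28e-04) and -0.59 (adjusted p = 0.00996). The log2 ratio of the first to the second was 0.45 to 0.95 on the GMP arrays, -0.81 to -0.62 on the L-GMP arrays and 0.27 to 1.27 on the L-GMP-derived arrays, a description that rests on the same values. Averaged over both, Ezh1 passed in neither comparison (-0.08, adjusted p = 0.552, and 0.17, adjusted p = 0.187), so no direction is given for the gene as a whole.

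**Figure D3:**
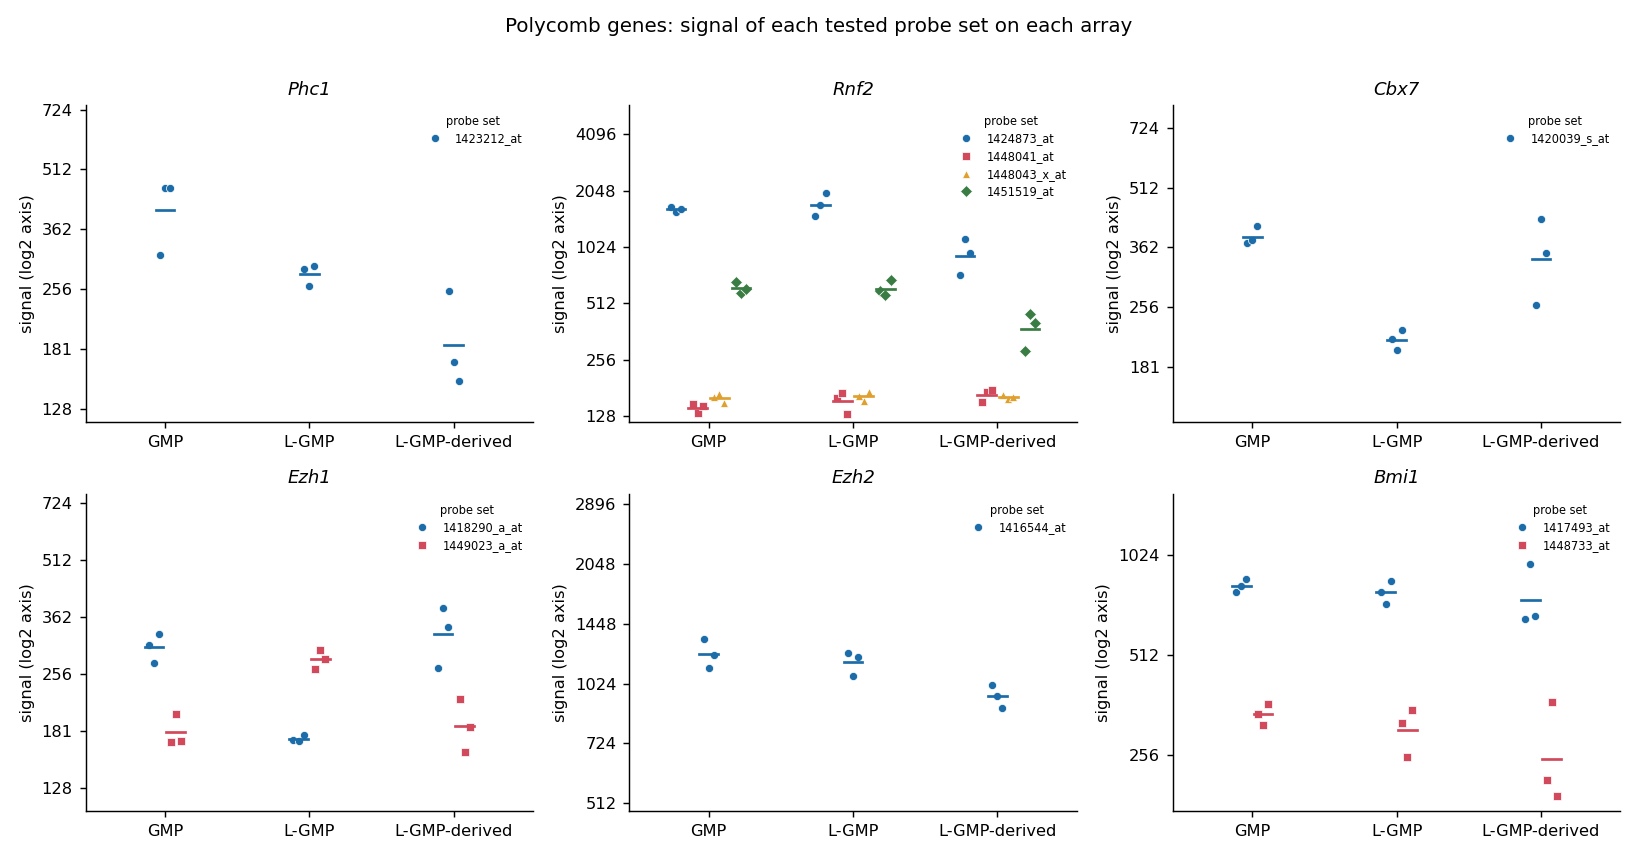
Signal (log2 axis) of each tested probe set of Phc1, Rnf2, Cbx7, Ezh1, Ezh2 and Bmi1 on each of the 9 arrays, in GMP, L-GMP and L-GMP-derived cells; points are arrays, colours and shapes are probe sets, and short lines are the means of the log2 signals of a group. The Ezh1 probe sets cross in L-GMP, Cbx7 dips in L-GMP only among the 3 groups, and the bright Rnf2 probe sets are lowest in L-GMP-derived cells.

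Of the 5 tested genes of the MLL complex, Wdr5 was higher and Psip1 lower in both comparisons with GMP, and none passed between the cultured cells and L-GMP (limma; 1 at an unadjusted p under 0.05). Kmt2a (1427283_at) gave 175, 177 and 184 in GMP, 198, 176 and 188 in L-GMP and 174, 145 and 158 in L-GMP-derived cells. GMP and L-GMP overlapped and the cultured arrays lay slightly lower, with adjusted p-values of 0.703, 0.324 and 0.149. Its second probe set was too dim to be tested, at means of 88.2 ± 6.23, 88.3 ± 4.51 and 78.2 ± 2.35. Wdr5, the subunit that holds the complex together, was higher in L-GMP. Probe set 1416581_at gave 2011, 1762 and 1605 in GMP, 2584, 2404 and 2316 in L-GMP and 2026, 2354 and 2376 in L-GMP-derived cells. All leukaemic arrays lay above the GMP arrays, L-GMP-derived replicate 1 only just. The level was 1.36-fold higher in L-GMP than in GMP (log2 0.45, SE 0.10, adjusted p = 0.00900) and 1.26-fold higher in L-GMP-derived cells (0.33, SE 0.10, adjusted p = 0.0382). The first call was lost when its probe sets were averaged (adjusted p = 0.189), and the second when GMP replicate 2 or 3, L-GMP replicate 2 or L-GMP-derived replicate 2 or 3 was left out, with no filter, with no intensity trend or with only the 6 arrays compared. The dimmer probe set 1448389_at gave 239, 269.8 and 246 in GMP, 287, 313 and 208 in L-GMP and 332, 516 and 469.6 in L-GMP-derived cells, and was higher in the cultured cells than in GMP (0.78, adjusted p = 0.0138) and than in L-GMP (0.70, adjusted p = 0.0187).

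Psip1, whose product LEDGF links MLL and menin to chromatin, was lower in both leukaemic groups. It gave 456, 359 and 382 in GMP, 253, 254 and 245 in L-GMP and 206, 291 and 269 in L-GMP-derived cells. The GMP arrays lay above all leukaemic arrays, and the leukaemic groups overlapped. The level was 1.59-fold lower in L-GMP than in GMP (log2 -0.66, SE 0.15, adjusted p = 0.00815) and 1.57-fold lower in L-GMP-derived cells (-0.65, SE 0.15, adjusted p = 0.00964), with 0.01 between the leukaemic groups (adjusted p = 0.967). A dim second probe set, not tested, read 88.0 to 116 in GMP, 45.6 to 53.7 in L-GMP and 52.7 to 74.8 in L-GMP-derived cells. Men1, the menin gene, had means of 262 ± 19.1, 227 ± 9.28 and 259 ± 8.20, and Ash2l 573 ± 46.1, 549 ± 94.2 and 698 ± 31.1. Neither passed in any comparison.

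Of the fusion partners, Mllt10 encodes AF10, a cofactor of Dot1l that is itself fused to MLL in some leukaemias. It gave 1064, 976 and 1082 in GMP, 1231, 1382 and 1253 in L-GMP and 929, 882 and 892 in L-GMP-derived cells. L-GMP arrays were the highest and cultured arrays the lowest, without overlap. The level in L-GMP-derived cells was 1.43-fold lower than in L-GMP (log2 -0.51, SE 0.10, adjusted p = 0.00271). The 1.24-fold higher level in L-GMP than in GMP (0.31, SE 0.10, adjusted p = 0.0400) was lost under both other scalings and when any 1 GMP or L-GMP array or L-GMP-derived replicate 3 was left out (up to adjusted p = 0.205 over all alternatives). Mllt1, the gene of ENL, had means of 236 ± 12.6, 270.3 ± 22.1 and 224 ± 4.23 and passed in no comparison. Mllt3, the normal gene of the AF9 portion, was dim at 106, 134 and 54.8 in GMP, 84.8, 100.4 and 70.0 in L-GMP and 92.8, 71.0 and 74.3 in L-GMP-derived cells. These groups overlapped and the probe set was below the filter, so no difference was detectable for it on these arrays.

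Both tested histone demethylases passed, in different comparisons. Kdm5b (1427143_at), which removes methyl groups from lysine 4 of histone H3, gave 1423, 1443 and 1306 in GMP, 1075, 1502 and 1508 in L-GMP and 648, 651 and 866 in L-GMP-derived cells. GMP and L-GMP overlapped, and the cultured arrays lay below all of them. The level in L-GMP-derived cells was 1.94-fold lower than in GMP (log2 -0.96, SE 0.16, adjusted p = 0.00171) and 1.88-fold lower than in L-GMP (-0.91, SE 0.16, adjusted p = 0.00172). The second probe set, 1427142_s_at, gave -0.82 in each of these comparisons (adjusted p = 7.92e-04 and 5.97e-04). Kdm1a, the gene of LSD1, a demethylase of the same residue that acts within corepressor complexes, was lowest in L-GMP at its tested probe set, 1426762_s_at. It gave 922, 1113 and 1103 in GMP, 715, 574 and 614 in L-GMP and 743, 845 and 839 in L-GMP-derived cells. At this probe set, whose ending marks possible binding of related transcripts, the 3 groups did not overlap, with the cultured arrays in between. The other probe set, 1426761_at, was below the filter. It read 40.9 to 57.0 in GMP, 34.2 to 68.6 in L-GMP and 67.6 to 91.0 in L-GMP-derived cells. The level in L-GMP was 1.65-fold lower than in GMP (log2 -0.72, SE 0.13, adjusted p = 0.00212). The difference of -0.37 between L-GMP-derived cells and GMP (adjusted p = 0.0599) and that of 0.35 between L-GMP-derived cells and L-GMP (adjusted p = 0.0607) did not pass.

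**Figure D4:**
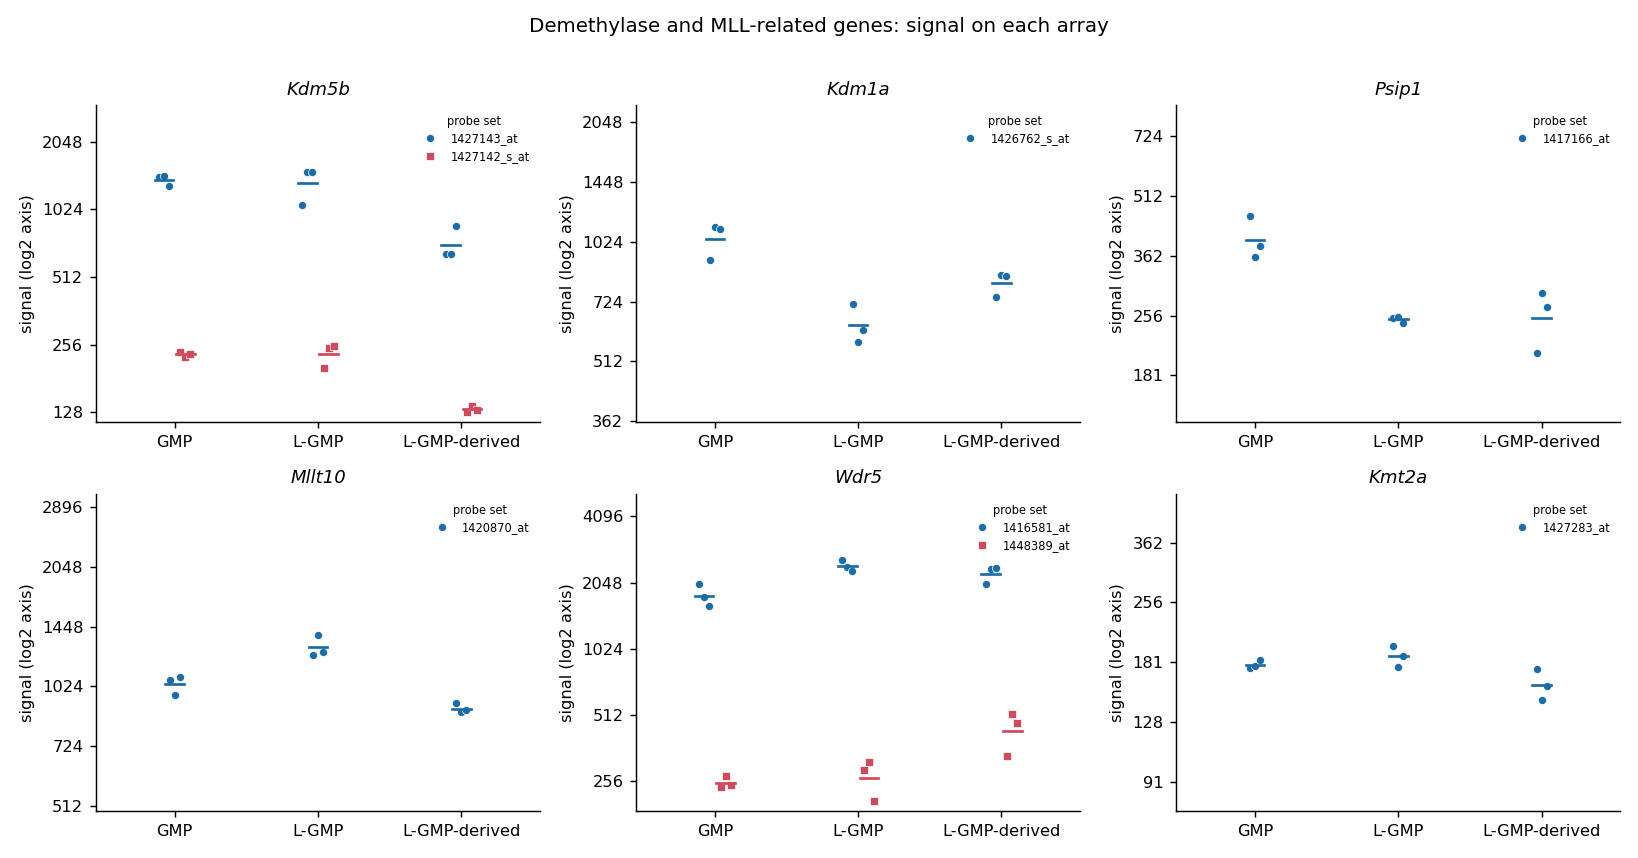
Signal (log2 axis) of each tested probe set of Kdm5b, Kdm1a, Psip1, Mllt10, Wdr5 and Kmt2a on each of the 9 arrays, in GMP, L-GMP and L-GMP-derived cells; points are arrays, colours and shapes are probe sets, and short lines are the means of the log2 signals of a group. Psip1 sits lower in both leukaemic groups, Kdm5b only in the cultured cells among the 3 groups, and Kmt2a stays between 145 and 198.

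None of the 5 tested acetylation genes passed in any comparison with limma, and 1, 1 and 0 had an unadjusted p under 0.05. Of all tested genes 25.9%, 24.1% and 30.7% passed. Hdac1, a class I histone deacetylase, had means of 4236 ± 98.8, 4425 ± 294 and 4603 ± 118. Hdac2 and Hdac3, its relatives, had means of 169 ± 36, 179 ± 17.8 and 178 ± 35.3, and of 243 ± 9.33, 209 ± 13.8 and 228 ± 18.3. Crebbp, a histone acetyltransferase and MLL fusion partner, had 247 ± 25.8, 240.5 ± 7.57 and 224 ± 47.2. Brd2, a bromodomain reader of acetylated histones, gave 871, 1138 and 1076 in GMP, 1379, 1332 and 1291 in L-GMP and 1739.8, 1324 and 1109 in L-GMP-derived cells. Its L-GMP arrays lay above the GMP arrays (log2 0.38, SE 0.16, adjusted p = 0.110), and its fold of 1.34 between L-GMP-derived cells and GMP (adjusted p = 0.0853) was the largest of any member that passed in no comparison. At its dimmer probe set 1423502_at the L-GMP arrays, at 149 to 179, lay below the GMP arrays, at 194 to 233 (log2 -0.30, limma adjusted p = 0.187). No direction is given for Brd2.

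The 2 SWI/SNF members gave small differences that were easily lost. Smarca4, the gene of the ATPase BRG1, gave 1717, 2032 and 1859.8 in GMP, 1885, 1792 and 1867 in L-GMP and 2280.5, 2098 and 2229 in L-GMP-derived cells. The cultured arrays lay above all others, 1.19-fold above L-GMP (log2 0.25, SE 0.08, adjusted p = 0.0435), a call lost under 13 of the 21 alternatives, omission of GMP replicate 3, any L-GMP array or any L-GMP-derived array among them (up to adjusted p = 0.207). Its dimmer probe set 1426805_at was 1.49-fold higher in L-GMP-derived cells than in GMP (log2 0.57, adjusted p = 0.0263). Smarcb1, a core subunit, gave 1704, 1915 and 1995 in GMP, 1625, 1294 and 1200.0 in L-GMP and 1522, 1630.2 and 1668 in L-GMP-derived cells at 1435856_x_at. The L-GMP level was 1.37-fold lower than in GMP there (log2 -0.46, SE 0.12, adjusted p = 0.0182), and the call was lost when GMP replicate 2 or 3 or L-GMP replicate 2 or 3 was left out (up to adjusted p = 0.509 over all alternatives). At 1416045_a_at the L-GMP arrays lay above the GMP arrays, at 396, 329.8 and 333 against 289, 312 and 295, but did not pass (0.24, adjusted p = 0.185 when probe sets of shared binding were left out), so no direction is given for Smarcb1.

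Several tested probe sets were available for 16 of the 33 members. Counted by probe set, 3 of 58 were higher and 8 lower in L-GMP than in GMP, 3 higher and 15 lower in L-GMP-derived cells than in GMP, and 5 higher and 11 lower in L-GMP-derived cells than in L-GMP. Over all 14578 tested probe sets the shares were 13.4% and 12.6%, 14% and 10.4%, and 16.4% and 13.5%. Where 2 or more probe sets of a gene passed in a comparison, they went the same way in 9 of 11 cases, and the 2 exceptions were both Ezh1. Probe sets of one gene share its RNA and the same arrays and are not replicates.

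Related genes outside the 40 were taken from 8 lists set by function, 171 genes of which 128 had a probe set and 109 were tested. In L-GMP against GMP 17 of the 109 were higher and 13 lower, and in L-GMP-derived cells against GMP 8 were higher and 9 lower. For L-GMP-derived cells against L-GMP 17 were higher and 16 lower. The shares called were 27.5%, 15.6% and 30.3%, beside 25.9%, 24.1% and 30.7% of all tested genes. Counts of the single lists, of 7 to 26 tested genes, are to be set beside the same shares of all genes. These 30, 17 and 33 calls moved with single arrays: without L-GMP-derived replicate 1 they were 47, 26 and 40, without GMP replicate 3 the first pair fell to 17 and 9, and without GMP replicate 2 the second was 11. Among 12 other Polycomb genes, 1 was higher and 3 lower in L-GMP than in GMP, none passed in L-GMP-derived cells against GMP (limma; also 0 at an unadjusted p under 0.05), and 4 were higher and 3 lower in L-GMP-derived cells than in L-GMP. Cbx6, a further Cbx paralogue, was low in L-GMP like Cbx7. As for Cbx7, no tested probe set of Cbx6 was left once those of shared binding were removed. Its signal was 399 ± 39.6 in GMP, 110.3 ± 5.18 in L-GMP and 521 ± 140.2 in L-GMP-derived cells (SD, n = 3), a log2 difference of -1.85 in L-GMP against GMP (adjusted p = 5.89e-05) and of 2.20 in L-GMP-derived cells against L-GMP (adjusted p = 1.90e-05). Jarid2, a substoichiometric PRC2 subunit that recruits the complex, went the other way, at 1557 ± 141, 2612 ± 96 and 1552 ± 251. It was 1.68-fold higher in L-GMP than in GMP (adjusted p = 0.00105) and 1.70-fold lower in L-GMP-derived cells than in L-GMP (adjusted p = 8.32e-04), both calls lost without probe sets of shared binding.

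Of 7 other DNA methylation genes, 2 were higher and 3 lower in L-GMP than in GMP, 1 was lower in L-GMP-derived cells than in GMP, and 1 was higher and 1 lower in L-GMP-derived cells than in L-GMP. Mbd2, a reader of methylated CG, was 1.90-fold higher in L-GMP than in GMP (660.4 ± 106 against 347 ± 44.6, adjusted p = 0.00898). Hells, a remodeller needed for DNA methylation, had 1064 ± 129.5 in L-GMP against 1669 ± 98.6 in GMP, a 1.57-fold lower level (adjusted p = 0.0141). The Hells call was lost without GMP replicate 3 or L-GMP replicate 2, with no filter or with the replicate number as a block. The Mbd2 call was lost with that block only (limma adjusted p = 0.0570). Of 12 elongation and fusion partner genes, 2 were higher and 1 lower in L-GMP than in GMP, 1 higher and 2 lower in L-GMP-derived cells than in GMP, and 1 higher and 1 lower in L-GMP-derived cells than in L-GMP. Ell2, an elongation factor of the same machinery as AF9, was at 158 ± 9.46 in GMP, 187 ± 5.52 in L-GMP and 589 ± 205 in L-GMP-derived cells, 3.57-fold higher in the cultured cells than in GMP (adjusted p = 1.44e-04) and 3.02-fold higher than in L-GMP (adjusted p = 3.05e-04). None of 11 other H3K4 methylation genes passed in L-GMP against GMP (limma; 5 at an unadjusted p under 0.05), 1 was lower in L-GMP-derived cells than in GMP, and 1 was higher and 3 lower in L-GMP-derived cells than in L-GMP.

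Of 26 other remodellers, 4 were higher and 4 lower in L-GMP than in GMP, 4 higher and 3 lower in L-GMP-derived cells than in GMP, and 4 higher and 3 lower in L-GMP-derived cells than in L-GMP. Chd7 was at 162 ± 17.1 in GMP, 446 ± 79.0 in L-GMP and 593 ± 99.2 in L-GMP-derived cells, 2.74-fold and 3.64-fold higher than in GMP (adjusted p = 1.39e-04 and 2.74e-05). Mta1, a subunit of the NuRD complex that also contains Hdac1 and Hdac2, was 2.12-fold lower in L-GMP than in GMP (889.8 ± 69.6 against 1886 ± 133, adjusted p = 7.82e-05). Of 20 other acetylation genes, 6 were higher and 1 lower in L-GMP than in GMP, 1 higher and 1 lower in L-GMP-derived cells than in GMP, and 2 higher and 2 lower in L-GMP-derived cells than in L-GMP. Of 8 other demethylases, 1 was higher in L-GMP than in GMP, 1 was higher and 1 lower in L-GMP-derived cells than in GMP, and 1 was lower in L-GMP-derived cells than in L-GMP. Of 13 genes of H3K9, H3K36 and arginine methylation, 1 was higher and 1 lower in L-GMP than in GMP, 1 was higher in L-GMP-derived cells than in GMP, and 4 were higher and 2 lower in L-GMP-derived cells than in L-GMP. Because several members (Uhrf1, Dnmt1, Ezh2) are known to follow the cell cycle, 14 tested S phase and mitosis markers were counted too. In both comparisons with GMP 3 of them were higher and 0 lower with limma (1 and 0 lower at an unadjusted p under 0.05), and in L-GMP-derived cells against L-GMP 3 were higher and 1 lower. Mki67, the proliferation marker, was 2276 ± 229 in GMP, 2934 ± 247 in L-GMP and 2993 ± 237 in L-GMP-derived cells. Its part in the members' differences was not tested.

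**Figure D5:**
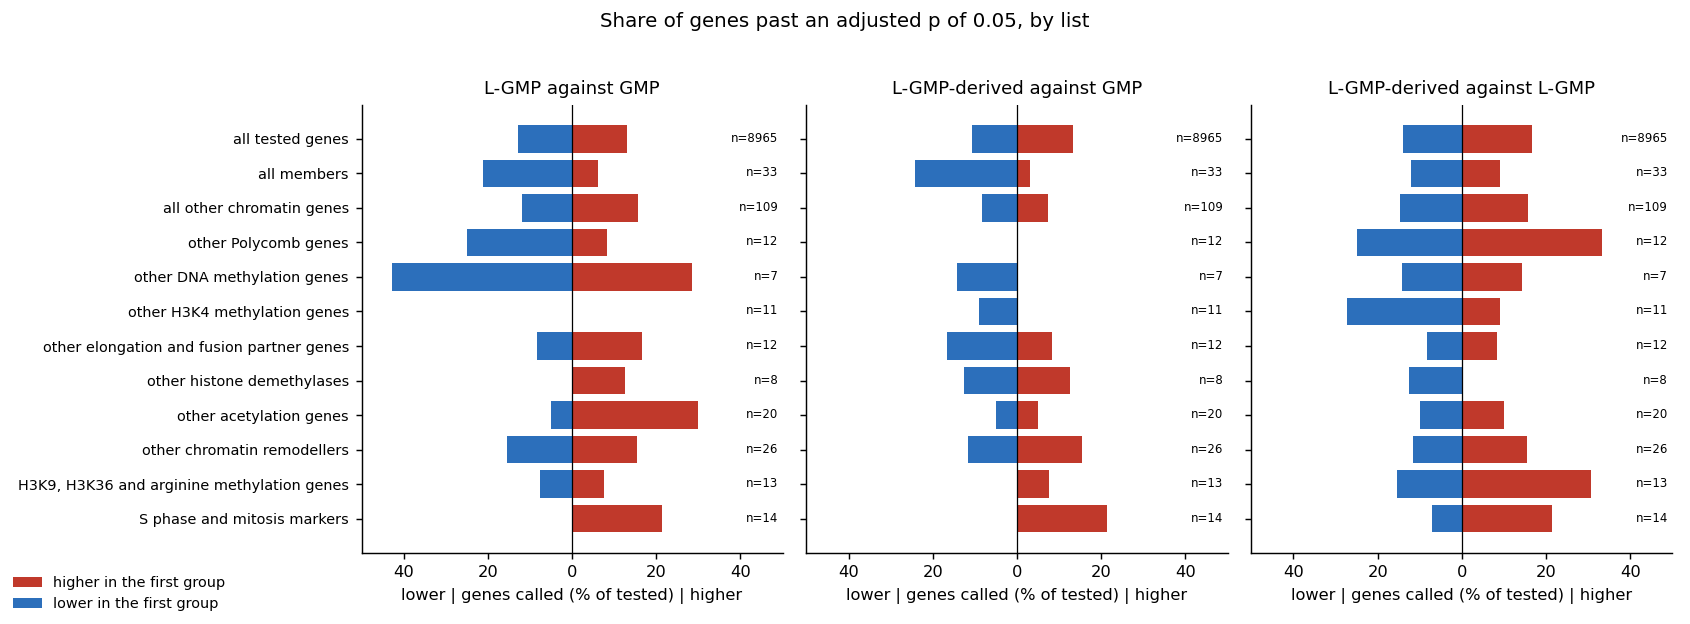
Share of tested genes with a limma adjusted p under 0.05 in each comparison (horizontal axis, percent; red bars to the right are genes higher in the first-named group, blue bars to the left genes lower), for all tested genes, the members and the lists of related genes, with the number tested at the right. The members' bar in L-GMP against GMP holds 7 lower genes, Ezh1 and Smarcb1 among them, whose probe sets went opposite ways, and 5 without these; the lists of related genes hold 7 to 26 genes each.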

How the data were processed

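The data are 9 Affymetrix mouse arrays, 3 each of GMP, L-GMP and L-GMP-derived cells, with groups taken from titles, sources and the series' design text. The authors deposited 1 linear intensity per probe set and array (22690 probe sets); MAS5 (version 5) was used per the submitters' processing notes, while for the background correction and the scaling the sources used here give nothing. As 1917 of 204210 values are negative, which MAS5's signal step does not give, the summary step is unknown. Detection calls were not used here.

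Intensities below the 25th percentile (62.4) were raised to it and log2 was taken, so folds of dim genes are understated. Leaving out 64 control probe sets, those above the 40th percentile (111) on at least 3 arrays were tested: 14578, of 8965 genes. Each gene is represented by the probe set with the highest mean of log2 signals. Symbols came from the platform annotation; 20364 of 20393 probe sets with 1 symbol matched RefSeq of GRCm38.p6. Groups were compared with limma 3.58.1 with an intensity trend under R 4.3.3, fitted to the 9 arrays jointly (two-sided, 6 residual degrees of freedom), with Benjamini-Hochberg adjustment over all tested probe sets and a threshold of 0.05. The fit was tested on simulated data. The number of arrays limits the precision. Promoters were read from RefSeq.

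Members and lists were chosen with earlier results of these data known. All members are accounted for: those past the threshold with every array, the others by means, ranges or name; up to 3 genes past the threshold could be named from each other list. Another 21 settings were tried: scaling, floor, filter, trend, arrays in the fit, array weights, averaging or leaving out probe sets, the replicate number as a block and leaving out each array. Replicate numbers were checked for pairing. Same-numbered L-GMP and L-GMP-derived arrays deviated from their group means with correlations of -0.31, -0.13 and -0.27, and different-numbered ones with -0.18 to 0.30. With 3 arrays a group these values cannot settle whether a shared number means a shared animal or batch.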

Additional observations from a re-analysis of the deposited data

How the results depend on the processing

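Of the 25 calls of member genes, 12 held under every one of the 21 alternatives that tested them, and 13 were lost under at least 1. The kept calls of Cbx7 and Kdm1a were tested under 20. Both genes were read only by probe sets of shared binding, which 1 setting leaves out. The causes were not tested. The number of members past the threshold in L-GMP against GMP was 9 and fell to 5 when a gene's probe sets were averaged. In L-GMP-derived cells against GMP it was 9, with 18 under array weights and 5 with the replicate block, and in L-GMP-derived cells against L-GMP it was 7, with 13 under array weights. Leaving out 1 array at a time gave 6 to 12, 6 to 10 and 6 to 9. Smarcb1 in L-GMP against GMP turned from -0.46 to 0.24 without probe sets of shared binding. Cbx2 passed, lower in L-GMP than in GMP, only with no filter (log2 -0.48, adjusted p = 0.0402).

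Same-numbered GMP and L-GMP arrays correlated at 0.17 and -0.13, and GMP and L-GMP-derived ones at -0.28 and -0.02. So few arrays cannot settle whether the replicate numbers pair them. With the replicate block, 6, 5 and 7 members passed. Psip1 then missed the threshold in both comparisons with GMP (limma adjusted p = 0.119 and 0.126). The block also cost Mllt10, Smarcb1 and Uhrf1 their calls in L-GMP against GMP. Asxl1, Ezh2 and Wdr5 lost theirs in L-GMP-derived cells against GMP, and Smarca4 its call against L-GMP. Phc1 gained calls in L-GMP against GMP and in L-GMP-derived cells against L-GMP. Of all genes 1182, 1062 and 2082 were called with the block, against 2326, 2157 and 2754 without it and 3313, 4227 and 4050 with array weights. The other chromatin genes called were 14, 5 and 21 with the block and 48, 46 and 48 with array weights. Other scalings moved the median of all genes by less than 0.1 on the log2 scale. Differences of dim members, such as Mllt3, Cbx2 and the second probe sets of Kmt2a and Psip1, are limited by the floor.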
